A study of Mus musculus with 176 samples.

Results

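The 10 genes of the effector T helper cytokines, *Ifng*, *Il2*, *Il4*, *Il5*, *Il13*, *Il17a*, *Il17f*, *Il21*, *Il22* and *Csf2*, were followed cell by cell in sorted CD4 T cells. All 10 were chosen by name and all 10 were listed in the count table, among 53546 gene names in all. The cells came from C57BL/6J mice, females 7 weeks old when first injected with P6, a peptide of apolipoprotein B, in complete Freund's adjuvant, and given P6 again in incomplete Freund's adjuvant 2 weeks later. Inguinal and para-aortic nodes were taken 4 weeks after the first injection, and no animal without P6 was included. Antigen-experienced cells, gated as TCRβ+ CD4+ CD44 high and CD62L-, were sorted singly into 176 wells, 32 as P6+ because they bound a P6-loaded I-Ab tetramer in both of its colors and the rest as P6-. The P6+ cells came from 1 mouse, and by the study's methods most of the stained sample went to the P6+ sort and the P6- cells were taken from the remainder. During tetramer staining all cells were held in dasatinib, an inhibitor of the kinases that start receptor signaling, and no restimulation is stated, so the counts describe transcripts present without a deliberate recall stimulus.

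Each of these cytokines is a secreted protein by which a CD4 T cell instructs other cells. IFN-γ is the signature product of TH1 cells and acts on macrophages. *Il4*, *Il5* and *Il13* are the TH2 cytokines of antibody class switching, eosinophils and barrier tissues, and *Il17a*, *Il17f* and *Il22* are products of TH17 and related cells that act on epithelium and recruit neutrophils. *Il21* is made mainly by follicular helper cells, IL-2 is the growth factor that activated conventional T cells make and regulatory T cells (Treg) consume, and *Csf2* encodes GM-CSF, which acts on myeloid cells. Transcripts of most of these genes are scarce in resting memory cells and are induced within hours of receptor signaling.

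Whole-transcript Smart-Seq2 libraries held 956280 to 3332191 reads on genes per P6+ cell, with a median of 1731608, and all 32 P6+ cells passed the quality limits (500000 reads, 2000 genes and less than 10% of reads from mitochondrial genes). With the P6- cells that passed, 161 cells were used, and these P6- cells had 522188 to 3401372 reads and a median of 1500457. The median number of genes with a read was 4396 in P6+ cells and 3432 in these P6- cells. Cells were not treated as replicates, and since the P6+ cells came from 1 mouse no test between the groups was made. Intervals are exact, at 95%, binomial for shares of cells and Poisson for read sums. They cover counting error only, since the reads are PCR copies with no molecular identifier. All P6+ cells carried 1 of the 8 prefixes in the cell names and were read on 1 of 2 sequencing lanes, and of the passing P6- cells 11 shared that prefix and 57 that lane. A cell was counted as holding a transcript at 10 or more reads. Of the genes that define αβ T cells, *Trac* had 10 or more reads in all 32 P6+ and 82.9% of P6- cells and *Trbc2* in 93.8% and 79.8%. *Cd4*, which encodes the protein by which every cell was sorted, reached 10 reads in only 16 of the 32 P6+ cells and in 39 P6- cells (30.2%). A gene without reads in a cell was therefore not read as absent from it.

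Cytokine transcripts were rare in both populations. Only 1 of the 32 P6+ cells held 10 or more reads of any of the 10 genes, a share of 3.12% (95% interval 0.0791 to 16.2%), and the gene was *Il17a*. Among the passing P6- cells 9 did, a share of 6.98% (95% interval 3.24 to 12.8%), through *Ifng* in 4 cells, *Il2* in 3, *Il4* in 1 and *Il22* in 1. The intervals of the groups overlapped. *Il5*, *Il13*, *Il17f*, *Il21* and *Csf2* reached 10 reads in 0 cells of either group, where 3 cells of the total, the limit set for a count of 0, would be 9.38% of P6+ and 2.33% of P6- cells and the exact interval reaches 10.9% and 2.82%. At 10 or more reads, 0 cells held more than 1 of the genes. Of all 26035 genes with a read in a passing cell, 39.6% had 10 or more reads in at least 1 P6+ cell and 51.7% in at least 1 P6- cell, against 1 and 4 of the 10 cytokine genes. For each of the 10 genes the intervals of the shares overlapped, whereas over 14419 genes they lay apart with P6+ cells higher for 3.72% and with P6+ cells lower for 0.125%. P6+ cells also had reads of more genes, a median of 4396 per cell against 3432 in passing P6- cells. The part of this difference in any of the shares given here was not tested. With the reads of each cell drawn down to 500000, the P6+ share was the same 3.12% and the P6- share was 5.43%. The 11 P6- cells with the prefix of the P6+ cells held 0 reads of all 10 genes, for which the exact interval of the share reaches 28.5%. Of the P6- cells on the first lane 7 of 72 held a cytokine gene and of those on the second lane 2 of 57 did, and the part of lane and prefix in these counts was not tested.

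**Figure D1:**
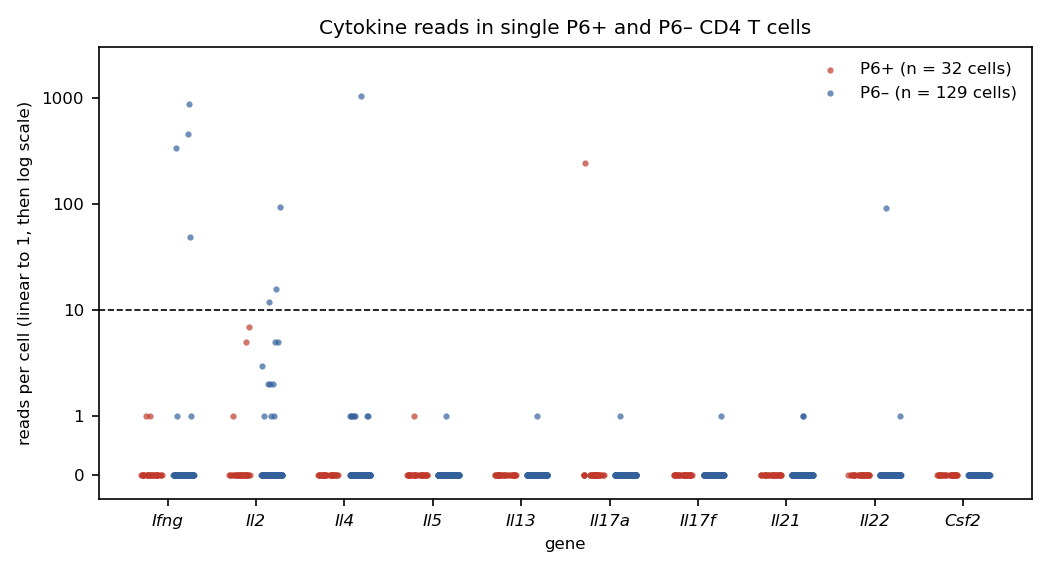
Reads per cell of each of the 10 cytokine genes (vertical axis, linear to 1 and logarithmic above) in 32 P6+ cells (red) and the passing P6- cells (blue), each point 1 cell and the dashed line 10 reads. Above the line lie 1 P6+ cell, for *Il17a*, and 9 P6- cells, for *Ifng*, *Il2*, *Il4* and *Il22*.

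*Il17a* (chromosome 1 of GRCm38, 20730905 to 20734496) encodes IL-17A, the defining cytokine of TH17 cells. P6+ cell 2 held 243 *Il17a* reads, 208 cpm (counts per 1000000 reads, here of that cell), and each of the other 31 P6+ cells held 0. The passing P6- cells held 1 *Il17a* read in all, in 1 cell. The pooled level was 4.09 cpm in P6+ cells and 0.00490 cpm in P6- cells, a log2 ratio of 2.34 with a pseudocount of 1 cpm. As a plain ratio of the reads it was 835 (95% interval 148 to 33110.8), but the whole P6+ sum is that of 1 cell. Of the 12091 genes with at least 1 cpm in the higher group, 22.4% had a log2 ratio of 1 or more and 34.4% a ratio of -1 or less. Of the 10 cytokine genes 3 had that level, with *Il17a* past the higher limit and *Ifng* and *Il4* past the lower one. *Il17f* (chromosome 1, 20777146 to 20790617), which encodes a close relative of IL-17A and is its nearest cytokine neighbour at a gap of 42.6 kb, had 0 reads in the same cell and in every other P6+ cell.

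The 250 bases before the RefSeq start of these neighbours (RefSeq, GRCm38.p6) are shown because 1 of them was read and the other was not in the same cell. Capitals mark the motif AGGTCA, searched on both strands, the core letters contacted by RORα, the product of *Rora*. *Il17a* is on the plus strand at chr1:20730655-20730904 and *Il17f* on the minus strand at chr1:20784271-20784520, inside the longer span that GENCODE gives this gene.
*Il17a*: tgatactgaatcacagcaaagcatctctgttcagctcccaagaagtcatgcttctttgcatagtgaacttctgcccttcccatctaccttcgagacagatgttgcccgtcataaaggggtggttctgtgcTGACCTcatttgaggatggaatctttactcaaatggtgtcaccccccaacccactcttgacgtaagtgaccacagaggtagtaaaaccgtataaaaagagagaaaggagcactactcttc
*Il17f*: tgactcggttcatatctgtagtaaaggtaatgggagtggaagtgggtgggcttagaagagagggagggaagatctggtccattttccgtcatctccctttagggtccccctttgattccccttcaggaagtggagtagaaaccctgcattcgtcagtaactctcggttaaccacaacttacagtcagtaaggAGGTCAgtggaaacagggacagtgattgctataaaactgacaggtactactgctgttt
The motif lay once in each window, on the opposite strand (TGACCT) with its first letter 120 bases before the start of *Il17a*, and on the gene's own strand 58 bases before the start of *Il17f*. None of the other 8 cytokine genes held these letters in its window, and 4604 of all 32817 windows of this length did. The match is a description of the letters in these windows and not of binding.

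The cell with *Il17a* also held transcripts typical of Treg. It had 2143 reads of *Foxp3*, the lineage factor of Treg, and its *Foxp3* level of 1835 cpm was the highest of the 32 P6+ cells, against a median of 0.639 cpm. *Il10*, which encodes a cytokine that restrains inflammation, had 217 reads there. *Maf*, a factor that binds the *Il10* gene, had 452 reads, *Gata3* 299, *Rora* 432 and *Il2ra*, the high affinity IL-2 receptor chain, 415. The TH1 factor *Tbx21* had 0 reads and the follicular factor *Bcl6* 1 read in this cell.

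The other P6+ cells with *Foxp3* or *Il10* did not hold *Il17a*. Among the 11 P6+ cells with 10 or more *Foxp3* reads, 2 had 10 or more reads of *Il10* and 1 of *Il17a*. Among the 19 such P6- cells, 0 had either of these genes at 10 reads. The exact intervals overlapped, 2.28 to 51.8% for *Il10* and 0.230 to 41.3% for *Il17a* in P6+ cells. For both genes the P6- interval was 0 to 17.6%. P6+ cell 7 held 476 *Il10* reads with 3155 of *Foxp3*, and P6+ cell 9 held 1107 *Il10* reads with 4084 of *Tbx21* and 0 of *Foxp3*. Neither held a read of the 10 cytokine genes, *Ifng* included.

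**Figure D2:**
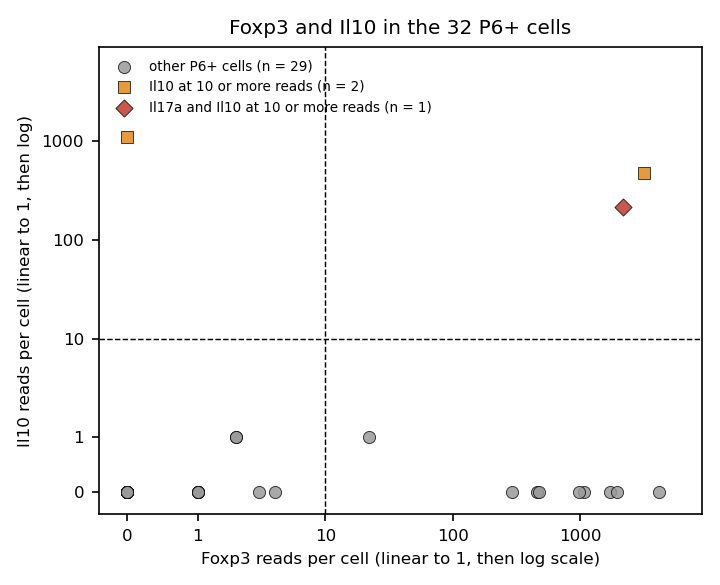
*Foxp3* reads (horizontal axis) and *Il10* reads (vertical axis) of each of the 32 P6+ cells, both axes linear to 1 and logarithmic above, with dashed lines at 10 reads and overlapping points at the lowest values. The cell with *Il17a* (red diamond) lies at 2143 *Foxp3* and 217 *Il10* reads, and the other 2 cells with *Il10* (orange squares) lie at 476 and 1107 *Il10* reads with 3155 and 0 of *Foxp3*.

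*Ifng* (chromosome 10, 118441046 to 118445892) reached 10 reads in 4 P6- cells and 0 P6+ cells. These 4 P6- cells held 870, 452, 338 and 49 reads, which is 354, 253, 197 and 36.5 cpm of the cell. Another 2 P6- cells and 2 P6+ cells held 1 read each, and the remaining cells held 0. The share of P6- cells at 10 or more reads was 3.10%, against 0 of 32 P6+ cells. The pooled level was 0.0337 cpm in P6+ and 8.39 cpm in P6- cells, a log2 ratio of -3.18. The ratio of the reads was 0.00402 (95% interval 0.000486 to 0.0145), and all but 2 of the P6- reads came from the 4 cells. The 3 P6+ cells with 10 or more reads of *Tbx21*, whose product T-bet drives *Ifng* in TH1 cells, held 4084, 1910 and 341 *Tbx21* reads and 0 *Ifng* reads.

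The P6- cells with *Ifng* differed from one another in what else they held. P6- cell 19, with 870 *Ifng* reads, had 8416 reads of *Tbx21*, 8928 of *Gata3*, the TH2 factor, and 2927 of *Lta*, which encodes lymphotoxin α. P6- cell 22, with 452 *Ifng* reads, had 1 *Tbx21* read but 10299 of the chemokine gene *Ccl5* and 2214 of *Rora*. The cells with 49 and 338 *Ifng* reads held 0 *Tbx21* reads and the immediate early gene *Egr1* at 2872 and 604 reads, with 3039 and 9128 reads of *Cd69*, an early activation marker. *Egr1* reached 10 reads in 10 P6- cells (7.75%) and in 0 P6+ cells. Of the 3 P6- cells with 10 or more *Tbx21* reads, 1 held *Ifng* at that level.

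*Il2* (chromosome 3, 37120523 to 37125959) stood apart by many low values. Its 3 P6- cells above the limit held 94, 16 and 12 reads, 54.3, 8.05 and 5.59 cpm, so that 2 of them lay just above it. Below the limit were 9 P6- cells with 1 to 5 reads and 3 P6+ cells with 7, 5 and 1 reads. For the other 9 cytokine genes every value under 10 reads was a single read, in 19 values. The P6+ cells with 7 and 5 *Il2* reads held 1529 and 2148 reads of *Gata3* and 0 of *Foxp3*. With a limit of 3 reads in place of 10, 3 of the 32 P6+ cells held a cytokine gene (9.38%) and 9.30% of the P6- cells did. The pooled *Il2* level was 0.219 cpm in P6+ and 0.706 cpm in P6- cells, a ratio of 0.310 (95% interval 0.161 to 0.547). The cell with 94 reads held 65.3% of the P6- reads, and without the top cell of each group the log2 ratio went from -0.49 to -0.17. The annotated span of *Il2* overlaps that of *Adad1*, and those of *Ifng*, *Il5*, *Il21* and *Csf2* also overlap another gene each. The strand setting of the counts is not given in the sources used here, so reads in such an overlap may be missing from these genes or belong to the other.

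Both remaining genes above the limit were read in single P6- cells. P6- cell 50 held 1045 reads of *Il4* (chromosome 11, 53602982 to 53618669), 898 cpm and the highest value among the 10 genes, with 0 reads of *Gata3*, 1474 of *Rora*, 6024 of *Nr4a1* and 1818 of *Cd69*. *Il4* had 1 read in each of 7 further P6- cells and 0 reads in P6+ cells. *Gata3*, the factor that opens the TH2 cytokine genes, had 10 or more reads in 19 P6+ and 23 P6- cells. Of these, 0 held *Il4* at 10 reads in either group. The pooled level was 5.16 cpm in P6- cells, with 1 cell holding all but 7 of the reads, while 3 counts over the P6+ cells would be 0.0506 cpm. Another P6- cell held 92 reads of *Il22* (chromosome 10, 118204942 to 118210047), 71.2 cpm, together with 553 reads of *Ahr*, whose product drives *Il22*, 430 of *Bcl6* and 911 of *Maf*. Of the 5 P6- cells with 10 or more *Ahr* reads, 1 held *Il22* at that level, and the cell with 94 *Il2* reads had 1550 *Ahr* reads and 0 of *Il22*. *Il22* had 1 read in 1 other P6- cell and 0 in P6+ cells, at least 9.02-fold lower there against the same 3 counts over the group. *Il22* has a near-identical copy, *Iltifb*, and reads that match both equally are not counted by the authors' counting mode, so its counts are uncertain.

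The 5 genes below the limit in every cell were close to 0 throughout. *Il5* (chromosome 11, 53720794 to 53725106), which drives eosinophils, had 1 read in a P6+ and 1 in a P6- cell. *Il13* (chromosome 11, 53631324 to 53634702), a TH2 product, had 1 read in a P6- cell. *Il17f* had 1 read and *Il21* (chromosome 3, 37222759 to 37232636) 2 reads, all in P6- cells. *Csf2* (chromosome 11, 54247271 to 54249667) had 0 reads in all 161 passing cells, where 3 counts would be 0.0506 cpm in P6+ and 0.0147 cpm in P6- cells. *Il21* was at 0 in all 6 P6+ cells with 10 or more reads of *Bcl6*, the factor of follicular helper cells, and below 10 reads in the 12 such P6- cells.

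Several of the 10 genes are neighbours on a chromosome. *Il2* and *Il21* lie 96.8 kb apart, *Il4* and *Il13* 12.7 kb, and *Ifng* and *Il22* 231 kb. Only the last pair had both genes at 10 reads in any cell, in 4 cells and 1 cell, and none of these was the same cell. Counting single reads, 1 P6+ and 5 P6- cells held more than 1 cytokine gene, and the cell with *Il22* held the most, with 1 read of *Il4* and 1 of *Il21* beside its 92.

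**Figure D3:**
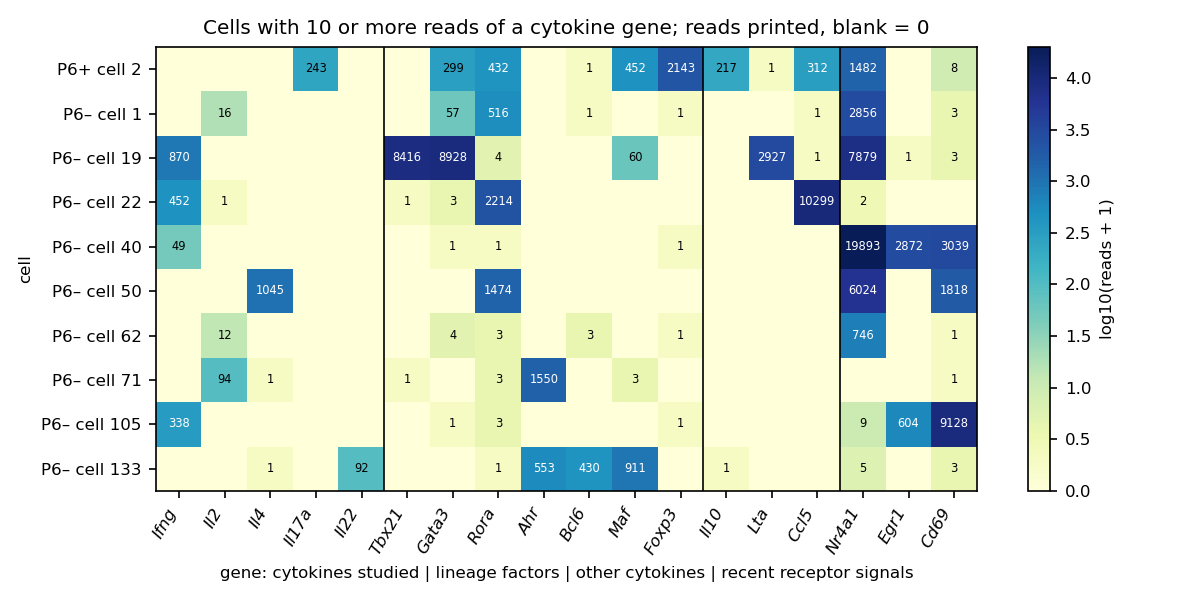
Reads of 18 genes (columns) in the 10 cells with 10 or more reads of a cytokine gene (rows), colored by log10(reads + 1) with the reads printed and 0 left blank. Each cell holds 1 cytokine gene above 10 reads, and the lineage factors beside it differ from cell to cell, *Foxp3* with *Il17a* in P6+ cell 2, *Tbx21* with *Ifng* in P6- cell 19 and *Ahr* with *Il22* in the last row.

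The 10 cells with a cytokine gene lay within the depth of the others. They held 1163310 to 2459911 reads, with a median of 1723676, and the other 151 passing cells had a median of 1549267. Of the 16 listed markers of CD8 T, NK, B, myeloid and gamma delta T cells, 0 had a read in any of these 10 cells, though only 1 of 4 gamma delta markers was listed. Between 2 and 7 of the 8 CD4 T cell markers reached 10 reads in each of them. In the P6+ cells the summed level of the 5 B cell markers ranged from 0 to 580 cpm, from *Cd79b* in 2 cells that held no cytokine gene at 10 reads, while *Ms4a1*, *Cd79a* and *Pax5* stayed below 10 reads in every cell. Of the 5 CD8 T and NK cell markers, *Cd8b1* reached 10 reads in 2 P6- cells and *Klrd1* in 1, none of them with a cytokine gene, and the 5 myeloid markers and *Trdc* stayed below 10 reads throughout.

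At least 1 of 8 genes of recent receptor signaling reached 10 reads in 8 of the 10 cells with a cytokine gene and in 88 of the 151 other cells, 58.3%. *Nr4a1*, an immediate target of the receptor, did so in 6 of the 10 and 57 of the 151. Between the groups, all 7 of these genes with at least 1 cpm had a log2 ratio of -1 or less in P6+ cells, against the background share of 34.4%. Some of these sums were those of 1 cell. The top P6- cell held 99.7% of the P6- reads of *Egr2* and 92.3% of those of *Irf4*, but 14.9% of those of *Nr4a3*. The top P6+ cell held 96.9% of the P6+ reads of *Nr4a2*. For each of the 8 genes the intervals of the shares of cells overlapped between the groups. The shares of cells with any of the 8 genes at 10 reads were 59.4% of P6+ and 59.7% of P6- cells. *Nr4a1* was held by 40.6% and 38.8% and *Cd69* by 21.9% and 20.2%, while *Nr4a2* was held by 3.12% and 16.3% and *Nr4a3* by 6.25% and 19.4%. In the pooled sums *Egr1* was at 0.320 cpm in P6+ and 38.7 cpm in P6- cells, *Nr4a3* at 4.57 and 159 cpm, and *Cd69* at 229 and 658 cpm. In the 11 P6- cells of the same prefix *Egr1* was at 0.324 cpm, close to its P6+ level, *Cd69* at 178 cpm, below its P6+ level, while *Nr4a3* was again above its P6+ level and reached 10 reads in 3 of the 11 (27.3%) against 6.25% of P6+ cells. No lineage factor reached 10 reads in 3 of the 10 cells with a cytokine gene and in 47 of the 151 other cells.

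Other secreted factors from a wider list were better represented. Of 17 further cytokine and chemokine genes, 9 reached 10 reads in a P6+ cell and 12 in a P6- cell. *Ltb*, which encodes the lymphotoxin β chain, was held by 25 of the 32 P6+ cells and 69 P6- cells (53.5%), and *Tgfb1*, which encodes TGF-β1, by 18 and 37. *Ccl5*, a chemokine of effector cells, was held by 10 P6+ cells (31.2%) and 6 P6- cells (4.65%). *Il10* was held by 3 P6+ cells and 1 P6- cell, and *Ebi3*, a subunit of IL-27 and IL-35, by 5 and 3. *Tgfb1* and *Ccl5* were the genes of this list whose intervals did not overlap between the groups, both higher in P6+ cells. Of the 11 P6- cells of the same prefix, 2 held *Tgfb1* and 1 held *Ccl5*. *Tnf*, the general inflammatory cytokine, was held by 0 P6+ cells and 1 P6- cell, and *Il3*, *Il6*, *Il9* and *Ccl3* had 0 reads in passing cells. Of the 11 genes of this list with at least 1 cpm, 3 had a log2 ratio of 1 or more and 4 of -1 or less, with a median of 0.52, beside 22.4% and 34.4% and a median of -0.22 over all 12091 genes.

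Receptor genes for the 10 cytokines were found in far more cells than the cytokines. *Ifngr1*, the ligand-binding chain for IFN-γ, reached 10 reads in 28 of the 32 P6+ cells and 87 P6- cells (67.4%), and *Ifngr2*, its partner, in 6 and 26. *Il2rg*, the chain shared by the receptors for IL-2, IL-4 and IL-21, did so in 29 and 94 cells. *Il2rb* was held by 23 P6+ cells (71.9%) and 57 P6- cells (44.2%), the only gene of the 17 in this list whose intervals did not overlap. Over 14419 genes the intervals lay apart with P6+ cells higher for 3.72% and lower for 0.125%. This 1 gene was therefore not read as a result about receptors. Of the 11 P6- cells of the same prefix, 5 held *Il2rb* (45.5%). Their interval of 16.7 to 76.6% overlapped that of the P6+ cells, 53.3 to 86.3%. *Il2ra* was held by 12 and 19 cells, *Il21r* by 14 and 39, *Il4ra* by 5 and 32, and *Il17ra* by 5 and 22. *Il5ra*, *Il13ra1*, *Il13ra2*, *Il17rc*, *Il22ra1*, *Csf2rb* and *Csf2rb2* stayed below 10 reads in every passing cell, and *Csf2ra* reached it in 1 P6- cell. Of the 10 receptor genes with at least 1 cpm, 2 had a log2 ratio of 1 or more and 4 of -1 or less, with a median of -0.25, beside the same 22.4% and 34.4% over all genes.

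**Figure D4:**
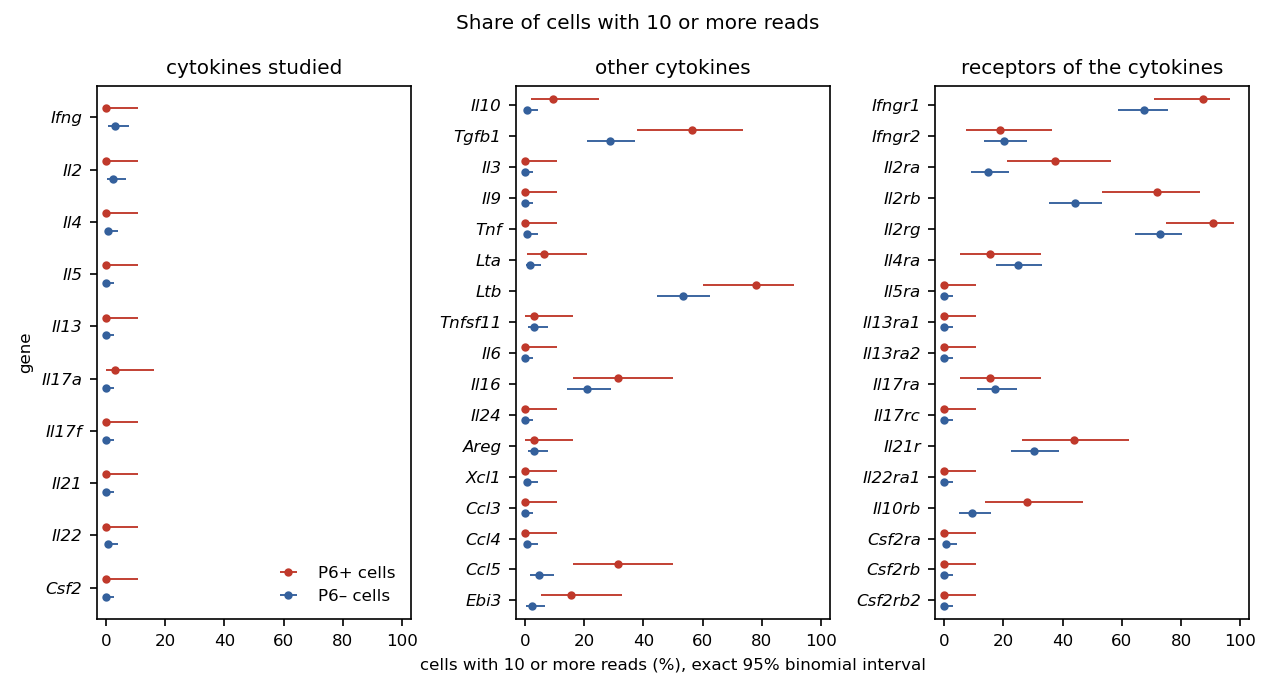
Share of cells with 10 or more reads (horizontal axis, percent, with exact 95% binomial intervals) of the 10 cytokine genes (left), 17 other cytokine genes (middle) and 17 receptor genes (right) in the 32 P6+ (red) and the passing P6- (blue) cells. All shares of the 10 cytokine genes lie at or below 3.12%, while *Il2rg* reaches 90.6% of P6+ cells and *Ltb* 78.1%.

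Summed over the 10 genes, P6+ cells held 259 reads (4.36 cpm) and P6- cells 3006 reads (14.7 cpm), a log2 ratio of -1.55 (95% interval -1.75 to -1.36 for counting error). Single cells decided this value. Without P6+ cell 2 it was -3.63, and without P6- cell 50 it was -0.99. The 11 P6- cells of the same prefix held 0 reads, so a ratio against them could only be above 0 and no direction was read from it.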

How the data were processed

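Smart-Seq2 libraries of 32 P6+ and 144 P6- CD4 T cells were sequenced. Per the labels and methods the authors aligned them with STAR 2.6.0a to GRCm38 under Ensembl annotation. The counts they deposited give reads per gene name in 176 cells and are neither normalized nor filtered. The labels also name FastQC 0.11.7 and SAMtools 0.1.19. This STAR mode counts uniquely mapped reads, and its strand setting is not given in the sources used here. The table listed 81 names more than once, none of them a member, and these were averaged as in the study's methods. The deposited tetramer sign, a label and no score, matched the label of each cell.

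Cells passed at 500000 reads, 2000 genes and under 10% mitochondrial reads. All 32 P6+ and 129 P6- cells passed. The 15 P6- cells that failed held 0 reads of the 10 genes. The study also filtered on a total mapping rate, which was not used here, and kept fewer P6- cells. Some genes of the lists are not reported here. Each group's counts were pooled and scaled to its pooled total (cpm), and log2 ratios used a pseudocount of 1 cpm. A count of 0 allowed 3 counts. Members and lists were chosen with earlier results of these data known. All 10 members were named. Genes most like a member were to be named for members with 10 reads in at least 5 cells, which 0 members reached. On simulated pooled counts for P6+ against P6- cells over 53546 genes, the direction was recovered for 200 of 200 changed genes. Of these, 200 estimates lay no more than 0.25 from the true log2 ratio. The simulated counts were Poisson draws, and the changed genes had higher pooled levels than any of the 10 cytokine genes. Reads held by single cells were not simulated, so the ratios of the 10 genes were not covered. Alternatives changed the read limit, the depth, the quality filter, the P6- cells used, the pseudocount, the scaling and the cells summed. Positions came from GENCODE M21 and promoter sequences from RefSeq (GRCm38.p6). Python 3.11.15, numpy 2.4.6, pandas 2.3.3, scipy 1.17.1 and matplotlib 3.10.9 were used, with R 4.3.3, edgeR 4.0.16 for TMM factors and DESeq2 1.42.0 for size factors on the pooled sums, without a test.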

Additional observations from a re-analysis of the deposited data

How the results depend on the processing

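A limit of 1 read raised the cytokine genes seen in a P6+ cell from 1 to 4 and those seen in a P6- cell from 4 to 9, and the shares of cells to 18.8% and 21.7%. A limit of 3 reads, chosen after seeing the data, gave 2 genes in P6+ cells. Limits of 50 reads or 10 cpm, thinning, no quality filter and a minimum of 1000000 reads per cell left both shares inside their intervals and both gene counts in place. Among P6- cells of the same name prefix, 0 genes and 0% of cells were seen. The summed log2 ratio of -1.55 moved to -0.78 with a pseudocount of 10 cpm, to -1.02 with the mean of the cpm of each cell, and to -3.07 without the top cell of each group. Leaving out the top P6+ cell or the top P6- cell alone, both chosen after seeing the data, gave -3.63 and -0.99. Against the same-prefix P6- cells the summed ratio was 2.42, that of *Ifng* 0.0478 and that of *Il2* 0.29. Since these 11 cells held 0 reads, a positive sign was certain and its size was set by the pseudocount, so no turn in direction was read from these 3 values. Of 220 values of single genes under an alternative, 188 stayed inside their counting intervals, and the rest left them. Many of the 188 could hardly move, since *Csf2* was at 0 under every setting and several other genes were close to it. The log2 ratio of *Ifng* was -5.99 and -0.87 with pseudocounts of 0.1 and 10 cpm, and -2.35 without the top cell of each group. That of *Il17a* went from 2.34 to 0 without the top cell of each group. Depth limits the 5 genes below 10 reads to upper bounds, and with 1 mouse there is no replicate check. No paired analysis was possible because the labels give no replicate numbers that pair a P6+ with a P6- cell. The comparison within the shared name prefix, given above, is the nearest to a matched one.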
